A study of Mus musculus with 12 samples.

Results

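Microglia respond to bacterial products by making superoxide and nitric oxide, and by raising enzymes that detoxify them. The 9 genes described here cover both sides of this chemistry: the NADPH oxidase subunits Cybb, Cyba, Ncf1 and Ncf4, the nitric oxide genes Nos2 and Gch1, and the defence genes Sod2, Hmox1 and Slc7a11. They were listed by name with earlier results of these data known, were matched to the gene column of the deposited tables, and all 9 were found among 23845 genes. All 9 also passed the filter on low counts, which left 15295 genes for testing. Nos2 passed it only through LPS libraries. It had 11 to 20 counts per library in CPEB1-KO-LPS and 29 to 48 in WT-LPS, against 0 to 2 in CPEB1-KO and 0 to 1 in WT.

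RNA was sequenced from total microglia of C57BL6/J mice aged 3 to 4 months, isolated on Percoll gradients, with 1 animal behind each of 12 poly(A) libraries. The 4 groups of 3 libraries were CPEB1-KO-LPS (CPEB1 knockout mice that received lipopolysaccharide 24 h before collection), CPEB1-KO (knockout mice without LPS), WT-LPS (wild-type mice with the same injection) and WT (wild-type mice without LPS). LPS is a component of bacterial outer membranes, and the CPEB1 protein binds mRNAs and regulates their poly(A) tails and translation. The labels give neither the knockout allele, nor whether it is limited to a cell type, nor the LPS dose, the sex of the mice or a vehicle injection for the untreated groups.

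The phagocyte NADPH oxidase has a membrane core of gp91phox (Cybb) and p22phox (Cyba), and cytosolic subunits, among them p47phox (Ncf1) and p40phox (Ncf4), join it on activation to produce superoxide. Inducible nitric oxide synthase (Nos2) needs tetrahydrobiopterin, whose synthesis starts with GTP cyclohydrolase (Gch1). Mitochondrial superoxide dismutase (Sod2) turns superoxide into peroxide, heme oxygenase (Hmox1) breaks down heme, and the cystine importer xCT (Slc7a11) supplies cysteine for glutathione. Nos2 and Sod2 are classical targets of NF-κB, Cybb of the myeloid factor PU.1, and Hmox1 and Slc7a11 of the oxidant sensor NRF2, with Slc7a11 also responding to amino acid shortage through ATF4.

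RefSeq promoter windows, from 250 bases before to 50 bases after the RefSeq start of the gene, were matched for 6 of the 9 genes (Sod2, Cybb, Cyba, Ncf1, Slc7a11 and Gch1). Those of 4 genes that rose with LPS in both genotypes are shown 5′ to 3′ on the gene's strand, in GRCm38.p6 coordinates, with motif matches in capitals. The motifs searched on both strands were the κB motif, TGACNNNGC (antioxidant response element), TGATGCAA (amino acid response element), TTCNNNGAA (gamma-activated site), GAGGAA (PU.1 core) and TGACTCA or TGAGTCA (AP-1). None of the matches shown overlaps another.
Slc7a11 (chr3:50443564-50443863, minus strand): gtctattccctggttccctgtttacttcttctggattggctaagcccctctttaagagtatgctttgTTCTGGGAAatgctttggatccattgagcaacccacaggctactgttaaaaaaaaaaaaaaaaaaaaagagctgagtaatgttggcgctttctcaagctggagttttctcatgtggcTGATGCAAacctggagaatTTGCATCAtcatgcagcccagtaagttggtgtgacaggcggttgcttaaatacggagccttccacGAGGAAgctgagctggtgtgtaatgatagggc
Sod2 (chr17:13007589-13007888, plus strand): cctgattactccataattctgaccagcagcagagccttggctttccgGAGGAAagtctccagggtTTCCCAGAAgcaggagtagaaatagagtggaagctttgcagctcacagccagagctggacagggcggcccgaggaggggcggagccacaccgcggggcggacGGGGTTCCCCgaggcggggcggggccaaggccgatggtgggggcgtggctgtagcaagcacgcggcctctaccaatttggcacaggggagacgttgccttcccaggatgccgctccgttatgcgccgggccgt
Gch1 (chr14:47189364-47189663, minus strand): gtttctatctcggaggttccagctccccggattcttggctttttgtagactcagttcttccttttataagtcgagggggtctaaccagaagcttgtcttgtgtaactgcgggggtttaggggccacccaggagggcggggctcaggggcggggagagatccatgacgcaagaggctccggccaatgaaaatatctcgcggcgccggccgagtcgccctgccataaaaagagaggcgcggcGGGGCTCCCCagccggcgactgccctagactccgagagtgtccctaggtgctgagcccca
Cybb (chrX:9469275-9469574, minus strand): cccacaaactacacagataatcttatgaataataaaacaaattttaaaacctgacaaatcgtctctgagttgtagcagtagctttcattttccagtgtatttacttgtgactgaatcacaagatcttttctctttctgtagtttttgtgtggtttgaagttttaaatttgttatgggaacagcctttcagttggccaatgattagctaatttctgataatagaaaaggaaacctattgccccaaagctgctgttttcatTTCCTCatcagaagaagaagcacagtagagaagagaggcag

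The Slc7a11 window held TGATGCAA in both orientations, at -66 to -59 and, as TTGCATCA, at -47 to -40 from the start, a motif present in 0.895% of 32851 promoter windows of the same length. It also held TTCTGGGAA and GAGGAA. In Sod2 a κB match, GGGGTTCCCC, lay at -83 to -74, with TTCCCAGAA and GAGGAA farther upstream, and in Gch1 a κB match, GGGGCTCCCC, ended just before the start, at -10 to -1. The κB motif occurred in 8.46% of all windows, TTCNNNGAA in 8.3%, GAGGAA in 28.3%, TGACNNNGC in 12.4% and the AP-1 letters in 5.2%. Cybb had 1 match, TTCCTC, the reverse complement of GAGGAA, at 10 to 15 after the start. Ncf1 held TTCTCAGAA, and the Cyba window held none of these letters. All positions count from the RefSeq start. This start is not always that of the gene spans given below, which are from GENCODE M21. For Cyba and Slc7a11 the starts differ slightly, and for Cybb and Sod2 they are farther apart. The Cybb window, 9469275 to 9469574, lies inside the span of 9435252 to 9487771. The Sod2 window, 13007589 to 13007888, lies inside that of 13006846 to 13040063. A match describes these letters in this window and is not evidence of binding.

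Cpeb1, the targeted gene, checked the genotype labels. It had 34.6, 40.6 and 24.0 TPM (a level corrected for transcript length and scaled to the same total in every library) in CPEB1-KO-LPS, 17.6, 26.4 and 21.3 TPM in CPEB1-KO, 40.2, 24.1 and 45.1 TPM in WT-LPS, and 19.95, 15.5 and 43.3 TPM in WT. The ranges of the genotypes overlapped with and without LPS, and the difference did not pass (log2 fold change -0.58 ± 0.31 without LPS and -0.07 ± 0.31 with LPS, SE; adjusted p = 0.334 and 0.940). A deletion of some exons need not be visible in values summed over the gene. Why Cpeb1 was detected in the knockout libraries was not tested, and the genotypes are those of the labels throughout. Library totals ran from 5.02 to 13.5 M expected counts, with WT replicates 2 and 3 the shallowest. All 8 microglia markers were detected in every group, their summed level being 649 to 2726 TPM in CPEB1-KO-LPS, 2465 to 3878 TPM in CPEB1-KO, 946 to 4404 TPM in WT-LPS and 5079.9 to 5792 TPM in WT. RNA of other cells was also present in every group: 10 neuron markers summed to 1153 to 5422 TPM and the 10 neutrophil markers found in the table, of 11, to 545 to 4048 TPM over the 12 libraries, and no listed marker was at 0 in a group. In whole-preparation RNA, fewer cells of a type and less RNA per cell cannot be told apart.

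With LPS, both nitric oxide genes, the 3 defence genes and the oxidase subunit Cybb rose in each genotype, Ncf4 rose in the knockout, and no gene of the 9 was lower past the threshold in either genotype. In CPEB1-KO-LPS against CPEB1-KO, 7 of 9 genes passed in edgeR's quasi-likelihood test with Benjamini-Hochberg adjustment over all genes at 0.05, all 7 higher, where 6.22% of all genes were called and 4.1% were called higher. In WT-LPS against WT, 6 of 9 passed, all 6 higher, where 27.4% of all genes were called and 12.4% were called higher. The genes past the threshold in both genotypes were Nos2, Gch1, Cybb, Sod2, Hmox1 and Slc7a11, and Ncf4 passed in the knockout. Nos2 met the count filter only through the LPS libraries, so its place in these counts is not independent of its rise. The median log2 fold change over the 9 genes was 1.78 in the knockout and 2.03 in wild type, beside 0.00 and -0.03 over all genes tested. TPM ranges of the 2 groups did not overlap, with LPS higher, for 9 of 9 genes in the knockout (16.2% of all genes) and 7 of 9 in wild type (27.4% of all genes). Leaving out 1 library gave 6 genes in every case in wild type, but 2 to 7 in the knockout: 2 without CPEB1-KO replicate 2, 3 without CPEB1-KO replicate 3, 4 without CPEB1-KO-LPS replicate 2 or replicate 3, 5 without CPEB1-KO replicate 1, and 6 or 7 without any other library.

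**Figure D1:**
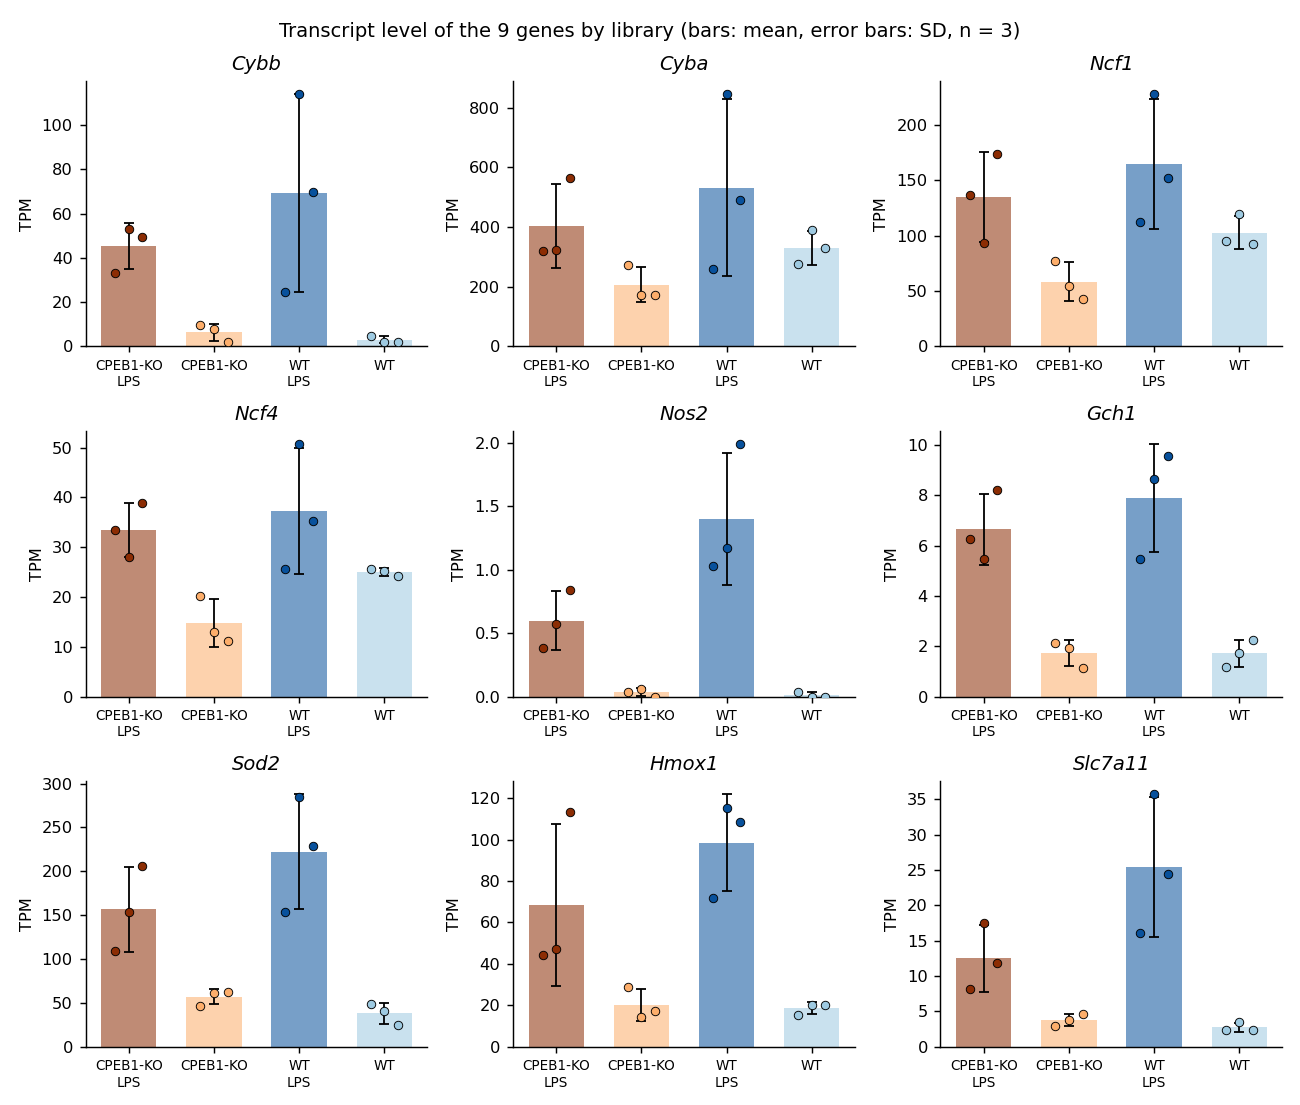
TPM of the 9 genes in each library (points, replicates 1 to 3 from left to right), with the mean (bar) and SD (error bar) of 3 libraries per group; the y axis of each panel is linear and starts at 0. For Cybb, Nos2, Gch1, Sod2, Hmox1 and Slc7a11 the points of each LPS group lie above those of the same genotype without LPS, and WT-LPS replicate 1 is the lowest of its group in all 9 panels.

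**Figure D2:**
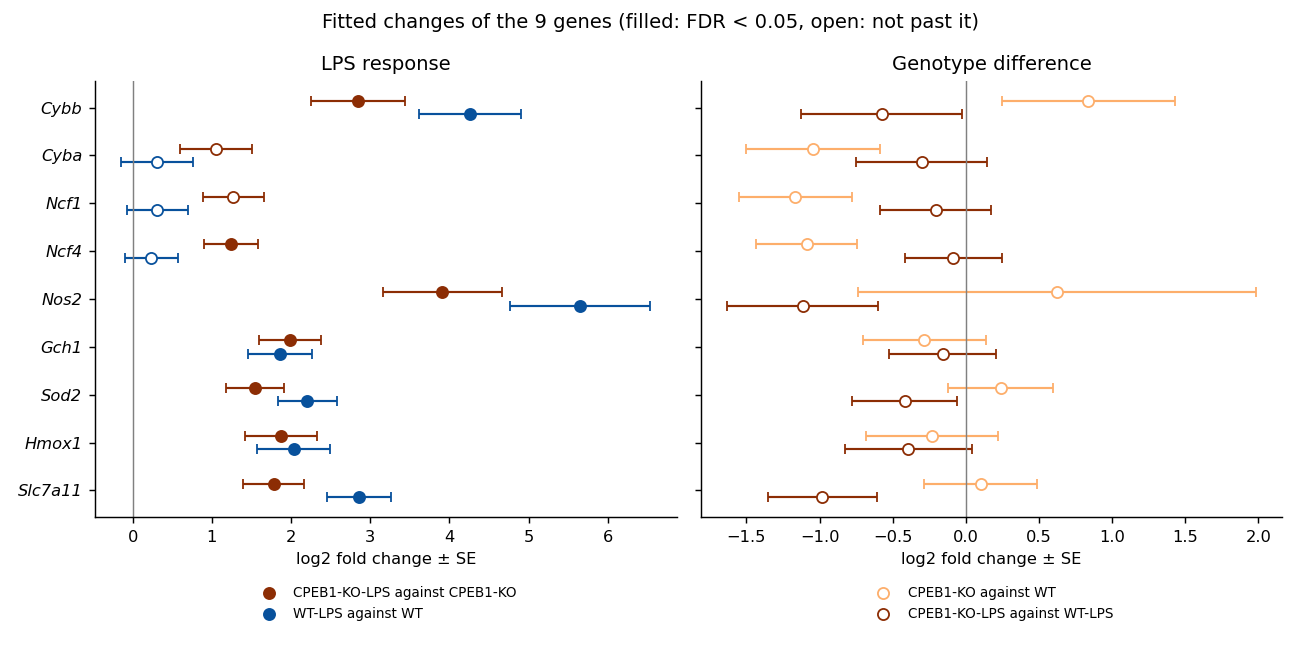
Fitted log2 fold change ± SE of the 9 genes for the LPS response in each genotype (left) and the genotype difference with and without LPS (right); filled points passed an adjusted p of 0.05. In the left panel 7 points are filled for the knockout and 6 for wild type, and no point is filled on the right.

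The oxidase subunits did not move as a unit. Cybb, the catalytic subunit (chromosome X, 9435252 to 9487771, minus strand, GENCODE M21 on mm10), had 33.4, 53.1 and 49.2 TPM in CPEB1-KO-LPS, against 9.57, 7.75 and 2.21 TPM in CPEB1-KO. In WT-LPS it had 24.4, 113.9 and 69.8 TPM, against 4.78, 2.02 and 2.11 TPM in WT. The LPS libraries were above all untreated ones in each genotype, and WT-LPS spanned the widest range. Cybb rose by a log2 fold change of 2.84 ± 0.60 in the knockout (SE, adjusted p = 0.0123) and by 4.26 ± 0.64 in wild type (adjusted p = 0.000795). The knockout call was lost without CPEB1-KO replicate 2 (adjusted p = 0.0570).

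Cyba, the partner that stabilises gp91phox in the membrane (chromosome 8, 122424776 to 122432930, minus strand), was the most abundant of the 9 transcripts. It had 320.2, 323 and 565 TPM in CPEB1-KO-LPS, against 274, 171 and 173 TPM in CPEB1-KO. WT-LPS had 258, 846 and 490.02 TPM, against 275, 389 and 328 TPM in WT. The groups did not overlap in the knockout and overlapped in wild type, where WT-LPS replicate 1 was below every WT library. Neither difference passed (1.05 ± 0.45, adjusted p = 0.208, in the knockout; 0.31 ± 0.45, adjusted p = 0.634, in wild type).

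Ncf1, the organiser subunit (chromosome 5, 134220053 to 134229625, minus strand), had 137, 93.0 and 174 TPM in CPEB1-KO-LPS, against 77.3, 54.9 and 42.7 TPM in CPEB1-KO. Its WT-LPS libraries had 113, 228 and 152 TPM, against 95.2, 119 and 92.6 TPM in WT. The knockout groups did not overlap, and the difference missed the threshold (1.27 ± 0.39, adjusted p = 0.0699). In wild type the groups overlapped (0.31 ± 0.38, adjusted p = 0.564). Ncf1 passed in the knockout with DESeq2 (adjusted p = 0.0222).

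Ncf4, the p40phox subunit that binds membrane phosphoinositide (chromosome 15, 78244801 to 78262580, plus strand), had 33.4, 28.0 and 38.95 TPM in CPEB1-KO-LPS, against 20.3, 13.1 and 11.1 TPM in CPEB1-KO. In WT-LPS its levels were 25.7, 50.8 and 35.3 TPM, against 25.6, 25.3 and 24.1 TPM in WT. Ncf4 rose in the knockout by 1.24 ± 0.34 (adjusted p = 0.0478), just inside the threshold, and this call was lost when any of 9 of the 12 libraries was left out (adjusted p up to 0.205). It was also lost with RLE size factors (adjusted p = 0.0559), the stricter filter (0.0539), the replicate block (0.0840) and a fit of only the groups compared (0.0557). Its wild-type groups were separate only by 25.71 against 25.64 TPM, and the fitted difference was 0.24 ± 0.34 (adjusted p = 0.626). Without WT-LPS replicate 2 the fitted wild-type differences of Cyba, Ncf1 and Ncf4 were negative (-0.31, -0.10 and -0.15).

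The unequal movement shows in transcript ratios within a library, which do not depend on scaling between libraries. These ratios were chosen with the levels known and are given without a test. Per 100 TPM of Cyba there were 11.9 ± 4.07 TPM of Cybb in CPEB1-KO-LPS (SD, n = 3), against 3.10 ± 1.66 in CPEB1-KO. The ratio was 12.4 ± 2.58 in WT-LPS, against 0.967 ± 0.671 in WT, and neither pair of groups overlapped. Ncf4 per 100 Ncf1 stayed between 21.1 and 30.1 in all 12 libraries, with group means of 25.7, 25.3, 22.8 and 24.7 in CPEB1-KO-LPS, CPEB1-KO, WT-LPS and WT. Cyba gave 302 ± 59.7 per 100 Ncf1 in CPEB1-KO-LPS, against 358 ± 46.6 in CPEB1-KO, and 308 ± 72.2 in WT-LPS, against 323 ± 32.8 in WT. Both of these ratios overlapped between LPS and untreated libraries in each genotype.

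**Figure D3:**
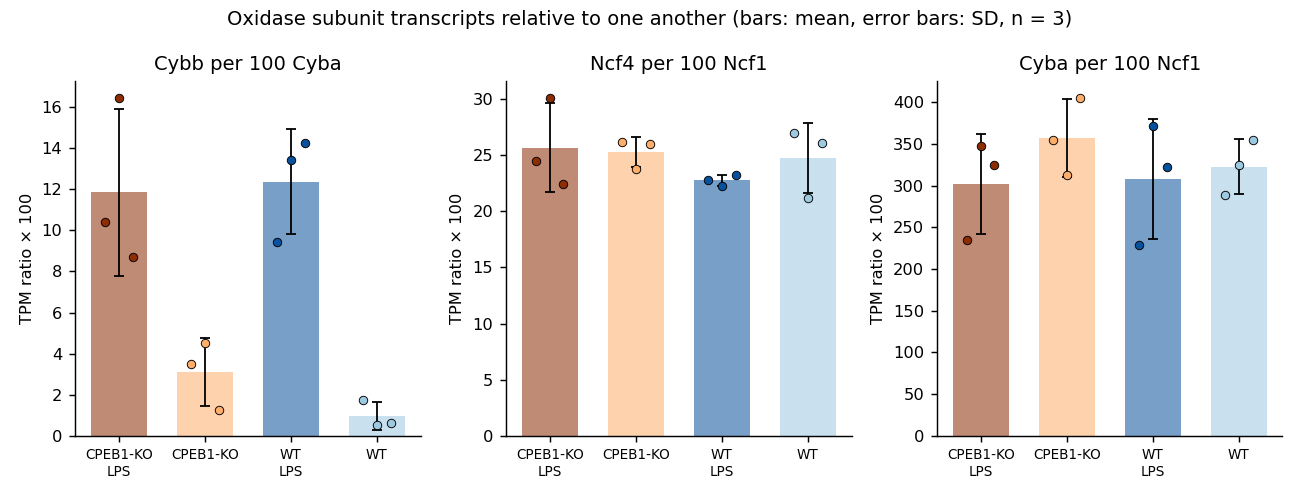
Ratios of oxidase subunit transcripts within each library, as TPM of the first gene per 100 TPM of the second (points, libraries; bars, group mean; error bars, SD, n = 3). Cybb per 100 Cyba is higher in the LPS groups of both genotypes, Ncf4 per 100 Ncf1 lies between 21.1 and 30.1 throughout, and Cyba per 100 Ncf1 overlaps between LPS and untreated libraries.

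Neutrophils and monocytes also make these oxidase subunits, and their markers were measured beside them. The neutrophil sum was 1311 to 4048 TPM in CPEB1-KO-LPS, against 545 to 2949 TPM in CPEB1-KO, and 1494 to 3170.02 TPM in WT-LPS, against 1142 to 2769.98 TPM in WT, with 0 of 10 markers higher and 1 lower past the threshold in each genotype. The sum of 8 monocyte markers was 113 to 184 TPM in CPEB1-KO-LPS, against 22.6 to 95.4 TPM in CPEB1-KO, and 265 to 540.4 TPM in WT-LPS, against 48.0 to 70.4 TPM in WT. Of these 8, 1 rose and 1 fell in the knockout, and 4 rose in wild type. Microglia markers went the other way, with 1 of 8 lower in the knockout and 4 of 8 lower in wild type. Of all genes, 4.1% were higher and 2.12% lower in the knockout, and 12.4% and 14.9% in wild type. Choroid plexus markers fell for 4 of 5 in the knockout and 5 of 5 in wild type. In wild type 4 of 4 red blood cell, 4 of 8 border macrophage and 4 of 8 B and T cell markers fell. There 4 of 9 endothelial and mural markers rose, and in the knockout 0 were called in each of these lists. The part of these cells in the result was not tested.

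**Figure D4:**
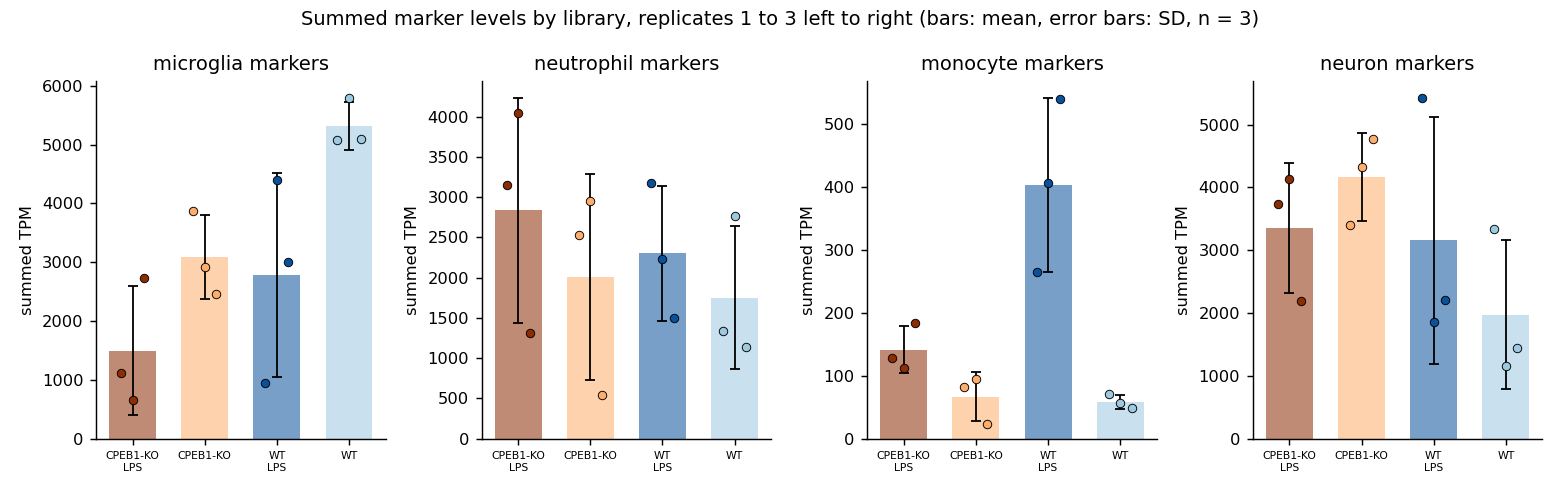
Summed TPM of microglia, neutrophil, monocyte and neuron markers in each library (points, replicates 1 to 3 from left to right), with group mean (bar) and SD (error bar, n = 3). WT-LPS replicate 1 has the lowest microglia sum of its group (946 TPM) and the highest neuron sum of all libraries (5422 TPM), and the monocyte sum is highest in WT-LPS (265 to 540.4 TPM).

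Nos2 (chromosome 11, 78920787 to 78960254, plus strand) appeared with LPS but remained rare. It had 0.38, 0.57 and 0.84 TPM in CPEB1-KO-LPS, against 0.04, 0.06 and 0 TPM in CPEB1-KO. In WT-LPS it had 1.03, 1.17 and 1.99 TPM, against 0.04, 0 and 0 TPM in WT. These levels stand for 49 counts in CPEB1-KO-LPS against 3 in CPEB1-KO, and 106 counts in WT-LPS against 1 in WT. The scaled count ratio was 15.99 in the knockout (95% counting interval 5.16 to 80.2) and 60.0 in wild type (10.5 to 2391), intervals that cover counting error only. Both responses passed edgeR's test (adjusted p = 0.00795 in the knockout and 0.000971 in wild type), with no overlap of the groups. With limma on log2(TPM + 1) the knockout call was lost (adjusted p = 0.144).

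Gch1, which makes the synthase's cofactor (chromosome 14, 47153895 to 47189413, minus strand), had 6.28, 5.46 and 8.21 TPM in CPEB1-KO-LPS, against 2.12, 1.95 and 1.15 TPM in CPEB1-KO. Its levels were 5.46, 8.65 and 9.57 TPM in WT-LPS, against 1.17, 1.72 and 2.26 TPM in WT. The ranges with and without LPS were separate in each genotype and nearly the same between genotypes. Gch1 rose by 1.99 ± 0.39 in the knockout (adjusted p = 0.00925) and by 1.86 ± 0.41 in wild type (adjusted p = 0.00532). The knockout call was lost without CPEB1-KO replicate 3 (adjusted p = 0.0566).

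Sod2 (chromosome 17, 13006846 to 13040063, plus strand) was the most abundant defence transcript of the list after LPS. It had 109, 154 and 206 TPM in CPEB1-KO-LPS, against 46.9, 61.5 and 62.0 TPM in CPEB1-KO. WT-LPS libraries had 153, 284 and 229 TPM, against 48.6, 40.7 and 24.7 TPM in WT. All LPS libraries exceeded all untreated ones. Sod2 rose by 1.55 ± 0.37 in the knockout (adjusted p = 0.0244) and by 2.21 ± 0.37 in wild type (adjusted p = 0.00149). In the knockout the call was lost without CPEB1-KO-LPS replicate 2 or 3 or any 1 of the 3 CPEB1-KO libraries (adjusted p of 0.0535 to 0.0937). The cytosolic dismutase Sod1 had a log2 fold change of 0.00 ± 0.21 in the knockout (adjusted p = 0.998) and -0.36 ± 0.21 in wild type (adjusted p = 0.221), and Sod2 per 100 Sod1 was 20.2 ± 7.09 in CPEB1-KO-LPS, against 6.88 ± 0.842 in CPEB1-KO, and 38.7 ± 17.9 in WT-LPS, against 6.14 ± 1.46 in WT.

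Hmox1 (chromosome 8, 75093621 to 75100589, plus strand) had 44.4, 47.1 and 113 TPM in CPEB1-KO-LPS, against 29.0, 14.2 and 17.4 TPM in CPEB1-KO. In WT-LPS it had 71.6, 115 and 109 TPM, against 15.6, 20.4 and 20.3 TPM in WT. CPEB1-KO-LPS replicate 3 was the highest of its group, and the LPS and untreated ranges were separate. Hmox1 rose by 1.87 ± 0.45 in the knockout (adjusted p = 0.0274) and by 2.03 ± 0.46 in wild type (adjusted p = 0.00642). Without CPEB1-KO-LPS replicate 3 the knockout value was 1.10 (adjusted p = 0.1005), and the call was also lost without CPEB1-KO replicate 2 (adjusted p = 0.131) or replicate 3 (adjusted p = 0.121), with the replicate block (adjusted p = 0.0641) and when the fit held only the groups compared (adjusted p = 0.0691). The same CPEB1-KO-LPS replicate 3 held the most red blood cell RNA of its group: 4 of 5 listed markers were in the table, and their sum was 7051, 11851 and 61141 TPM in CPEB1-KO-LPS, against 27877 to 37849 TPM in CPEB1-KO, 6544 to 10887 TPM in WT-LPS and 41663 to 66991 TPM in WT. The part of these cells in the result was not tested.

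Slc7a11 (chromosome 3, 49892526 to 50443614, minus strand) had 8.18, 17.6 and 11.8 TPM in CPEB1-KO-LPS, against 2.89, 3.85 and 4.57 TPM in CPEB1-KO. WT-LPS had 16.1, 35.8 and 24.4 TPM, against 2.32, 3.45 and 2.40 TPM in WT. No LPS library fell within the untreated range. Slc7a11 rose by 1.78 ± 0.38 in the knockout (adjusted p = 0.0145) and by 2.86 ± 0.40 in wild type (adjusted p = 0.000536). Calls in the knockout were lost without CPEB1-KO-LPS replicate 2, CPEB1-KO replicate 1 or CPEB1-KO replicate 2 (adjusted p of 0.0627 to 0.0705). Slc3a2, the heavy chain with which xCT forms the transporter, rose as well, by 1.07 ± 0.24 in the knockout (adjusted p = 0.0196) and 1.14 ± 0.24 in wild type (adjusted p = 0.00492).

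Annotated genes overlap some of these loci: Gm20388 at Cyba and Gtf2ird2 at Ncf1, both on the other strand, an antisense gene, 3 processed pseudogenes and 1 unclassified gene at Slc7a11, and 2 processed pseudogenes at Gch1. Whether counting used the strand is not given in the sources used here, so reads of overlapping genes cannot be told apart.

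Without LPS, CPEB1-KO and WT differed in 0 of the 9 genes past the threshold, where 0.0327% of all genes were called, and DESeq2 also gave 0 of 9, with 500 of 15295 genes called. At an unadjusted p under 0.05 there were 3 of 9, beside 18.6% of all genes. These were the abundant oxidase subunits Cyba (-1.05 ± 0.46, adjusted p = 0.247), Ncf1 (-1.17 ± 0.39, adjusted p = 0.186) and Ncf4 (-1.09 ± 0.34, adjusted p = 0.180). They were also the 3 genes whose TPM did not overlap, lower in every CPEB1-KO library than in every WT library, a pattern held by 5.09% of all genes, while 26.7% were higher without overlap. Mean levels were 206 ± 58.9 TPM in CPEB1-KO and 331 ± 57.0 TPM in WT for Cyba, 58.3 ± 17.5 TPM in CPEB1-KO and 102 ± 14.8 TPM in WT for Ncf1, and 14.8 ± 4.83 TPM in CPEB1-KO and 25.0 ± 0.785 TPM in WT for Ncf4 (SD, n = 3 each). Beside them, the 8 microglia markers summed to 3087 ± 721 TPM in CPEB1-KO and 5321 ± 408 TPM in WT, with 0 of 8 past the threshold and 3 of 8 at an unadjusted p under 0.05. The 10 neuron markers summed to 4164 ± 702 TPM in CPEB1-KO and 1972 ± 1184 TPM in WT. Their fitted values ran from 0.34 to 1.40, with 0 of 10 past the threshold and 3 of 10 at an unadjusted p under 0.05. The 8 border macrophage markers summed to 24.9 to 34.5 TPM in CPEB1-KO and 41.5 to 56.3 TPM in WT, with 0 of 8 past the threshold and 3 of 8 at an unadjusted p under 0.05, and the 4 red blood cell markers to 27877 to 37849 TPM in CPEB1-KO and 41663 to 66991 TPM in WT, with 0 of 4 past the threshold. Their part in the result was not tested. The other genes, Nos2 apart, differed by -0.28 to 0.84 with none past the threshold. Cybb, at 9.57, 7.75 and 2.21 TPM in CPEB1-KO against 4.78, 2.02 and 2.11 TPM in WT, had a fitted value of 0.84 ± 0.59 with a 95% interval of -0.44 to 2.11. Nos2 had 3 counts in CPEB1-KO and 1 in WT, too few for a fold.

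After LPS, 0 of the 9 genes differed between CPEB1-KO-LPS and WT-LPS past the threshold, where 0.00654% of all genes were called, and DESeq2 again gave 0 of 9, with 90 of 15295 genes called. All 9 fitted values were negative, from -1.12 to -0.09, with a median of -0.39 beside 0.06 over all genes, and 2 of 9 had an unadjusted p under 0.05, beside 10.8% of all genes. These were Nos2 (-1.12 ± 0.52, adjusted p = 0.462) and Slc7a11 (-0.98 ± 0.37, adjusted p = 0.422). Nos2 was the only 1 of the 9 without overlap, each CPEB1-KO-LPS library being below each WT-LPS library (8.75% of all genes were lower without overlap). For Slc7a11 the highest CPEB1-KO-LPS library, at 17.6 TPM, was above the lowest WT-LPS library, at 16.1 TPM. Marker sums of 4 other cell types were apart between the same groups, with 0 markers of any of these lists past the threshold: the monocyte sum was 113 to 184 TPM in CPEB1-KO-LPS and 265 to 540.4 TPM in WT-LPS, and the sum of 7 astrocyte markers was 588 to 870 TPM in CPEB1-KO-LPS and 1126 to 1857 TPM in WT-LPS. The sum of 9 endothelial and mural markers was 36.6 to 43.9 TPM in CPEB1-KO-LPS and 59.0 to 170.03 TPM in WT-LPS, and that of 5 choroid plexus markers was 2513 to 3713 TPM in CPEB1-KO-LPS and 1116 to 2291 TPM in WT-LPS. At an unadjusted p under 0.05 there were 6 of 8 monocyte, 4 of 7 astrocyte, 4 of 9 endothelial and mural and 3 of 5 choroid plexus markers. So were 4 of 4 red blood cell markers, with fitted values of 1.83 to 2.13 and 0 past the threshold. Their sums overlapped, at 7051 to 61141 TPM in CPEB1-KO-LPS and 6544 to 10887 TPM in WT-LPS. The part of these cells in the result was not tested. Without WT-LPS replicate 2 the fitted values of Cybb, Cyba, Ncf1 and Ncf4 were positive (0.11, 0.31, 0.21 and 0.30), as was that of Ncf4 without CPEB1-KO-LPS replicate 2 (0.034), so the common sign of the 9 genes depended on single libraries.

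The difference between the LPS responses, knockout minus wild type, passed for 0 of 9 genes by edgeR's quasi-likelihood test, where 0.00654% of all genes were called, and for 0 of 9 by DESeq2, which called 301 of 15295 genes. By edgeR 0 of 9 had an unadjusted p under 0.05, beside 15.5% of all genes. Ncf4 had 1.00 ± 0.48 (95% interval -0.02 to 2.03, adjusted p = 0.334) and Ncf1 0.96 ± 0.54 (-0.20 to 2.12, adjusted p = 0.408). On the other side of 0, Slc7a11 had -1.08 ± 0.53 (-2.23 to 0.07, adjusted p = 0.346) and Cybb -1.41 ± 0.81 (-3.16 to 0.33, adjusted p = 0.418). Gch1 had 0.13 ± 0.55 (-1.07 to 1.32) and Hmox1 -0.16 ± 0.63 (-1.51 to 1.19). A call in one genotype and not in the other, as for Ncf4, is therefore not shown to be a difference between genotypes.

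Outside WT, libraries of a group differed in the same direction for most of the 9 genes. WT replicate 1 was highest for 4 genes and lowest for 4. WT-LPS replicate 1 had the lowest level of its group for 9 of 9 genes, and WT-LPS replicate 2 the highest for 7. In CPEB1-KO-LPS, replicate 3 was highest for 7 genes and replicate 1 lowest for 6, and in CPEB1-KO replicate 1 was highest for 6. In these 3 groups the library with most high values also had the highest microglia marker sum (2726 TPM in CPEB1-KO-LPS replicate 3, 3878 TPM in CPEB1-KO replicate 1 and 4404 TPM in WT-LPS replicate 2). WT-LPS replicate 1 had 946 TPM of microglia markers and 5422 TPM of neuron markers. Their part in the result was not tested.

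Profiles over the 12 libraries were compared by the root mean square difference of mean-centred log2 CPM, in which a small value means a like profile. The nearest gene to Ncf4 was Ncf1, at 0.139, followed by Nmi at 0.160. Gch1 was nearest to Rbm3 (0.241) and Tubb6 (0.287), Hmox1 to Mapkapk2 (0.261) and Tuba1c (0.271), and Sod2 to Ehd1 (0.262) and Id2 (0.263). Slc7a11 was nearest to Sdc4 (0.330) and again Id2 (0.364), Nos2 to Rhbdf2 (0.377) and Pim1 (0.381), and Cybb to Gpr65 (0.447) and Fgr (0.469). The measure is not scaled, so it grows with the size of a gene's own changes and does not rank the genes against each other.

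A wider set of 116 oxidant and antioxidant genes put these 9 in context, of which 106 were tested. In CPEB1-KO-LPS against CPEB1-KO 10 rose and 3 fell, where 4.1% of all genes were called higher and 2.12% lower. In WT-LPS against WT 24 rose and 16 fell, where 12.4% of all genes were called higher and 14.9% lower. These shares also stand beside the counts of each list below. In the wild-type comparison the split depended on scaling, with 34 higher and 9 lower in limma on log2(TPM + 1), a scale on which the median of all genes was 0.29. In both genotypes the medians of the set, 0.03 in the knockout and 0.02 in wild type, lay near that of all genes. Without CPEB1-KO-LPS replicate 2 the knockout total of 13 became 8, and without any 1 of the CPEB1-KO libraries it became 7.

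Among 8 other genes of the NADPH oxidase and its partners, 4 had an unadjusted p under 0.05 in the knockout by edgeR's test, as did 3136 of all 15295 genes. In the knockout 0 of the 8 passed, and in wild type 3 rose. These were the proton channel Hvcn1 (2.40 ± 0.61, adjusted p = 0.0121), the disulfide isomerase P4hb (0.95 ± 0.32, adjusted p = 0.0425) and the kinase Prkcd, which phosphorylates p47phox (0.59 ± 0.21, adjusted p = 0.0497). Of 18 nitric oxide, tetrahydrobiopterin and arginine genes, 1 rose in the knockout, and 5 rose and 3 fell in wild type. Arg1, arginase, which uses the same substrate as the synthase, was that 1 gene, with 434 counts in CPEB1-KO-LPS against 9 in CPEB1-KO (count ratio 47.2, 95% counting interval 24.6 to 104) and 414 in WT-LPS against 3 in WT (78.1, 26.5 to 380.2). In wild type the arginine importer Slc7a1 (1.85 ± 0.35) and the arginine-synthesis enzyme Ass1 (1.22 ± 0.25) rose, and Ddah2, which degrades an inhibitor of nitric oxide synthases, fell by 1.78 ± 0.27.

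Superoxide and peroxide removal had 29 other genes tested, of which 3 rose and 1 fell in the knockout, and 7 rose and 4 fell in wild type. Glutaredoxin Glrx rose in both (1.46 ± 0.36 in the knockout and 2.05 ± 0.37 in wild type), as did methionine sulfoxide reductase Msrb1 (1.12 ± 0.22 and 1.27 ± 0.22). In wild type Msrb2 fell by 1.99 ± 0.25 and the mitochondrial thioredoxin reductase Txnrd2 by 1.11 ± 0.20, and in the knockout the glutathione peroxidase Gpx3 rose by 1.28 ± 0.24 and Gpx8 fell by 1.57 ± 0.40. Of 22 glutathione and cystine genes, 2 rose and 2 fell in the knockout, and 4 rose and 6 fell in wild type. Besides Slc3a2, Gsto1 rose in both (1.12 ± 0.30 in the knockout and 1.34 ± 0.30 in wild type) and Ggt5 was lower in both (-1.98 ± 0.44 in the knockout and -2.56 ± 0.45 in wild type). Glutathione reductase Gsr rose by 1.69 ± 0.35 in wild type, and the transferase Gstt1 fell by 1.00 ± 0.26 in the knockout.

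Of 29 heme breakdown and NRF2-linked genes, 4 rose and 0 fell in the knockout, and 5 rose and 3 fell in wild type. The 4 were Maff and Mafk, small MAF partners of NRF2, and the metallothioneins Mt1 and Mt2. Maff rose by 4.31 ± 0.54 in the knockout and 3.48 ± 0.53 in wild type, Mt2 by 3.24 ± 0.45 and 2.96 ± 0.44, Mt1 by 2.43 ± 0.39 and 1.93 ± 0.39, and Mafk by 1.87 ± 0.30 and 2.08 ± 0.31. Between genotypes, 0 of the 106 genes passed in CPEB1-KO against WT (15 had an unadjusted p under 0.05, beside 18.6% of all genes), 0 in CPEB1-KO-LPS against WT-LPS (12, beside 10.8%) and 0 in the difference of responses (10, beside 15.5%), all by edgeR's quasi-likelihood test. DESeq2 called 4 in CPEB1-KO against WT (Ass1 and Nos1 higher, Asl and Ddah2 lower), 0 in CPEB1-KO-LPS against WT-LPS and 2 in the difference of responses (Msrb2 higher, Nos1 lower), and these genes were named after their values were seen. Over all 15295 genes DESeq2 called 500, 90 and 301 in these comparisons. Without WT replicate 1, edgeR called 9 of 107 tested in CPEB1-KO against WT and 3 of 107 in the difference of responses. Calls over all genes were not tallied for that fit, so these counts cannot be read as particular to the set.

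**Figure D5:**
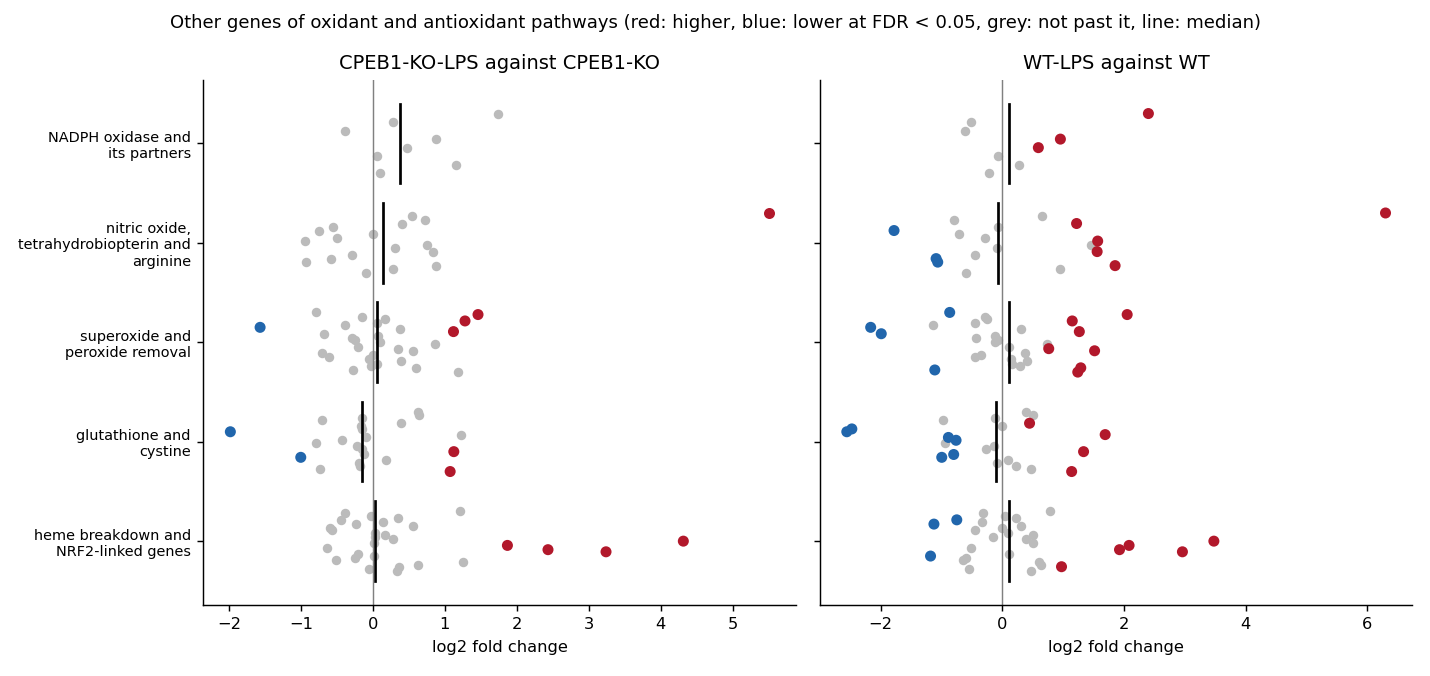
Log2 fold change with LPS of the other tested genes of 5 oxidant and antioxidant lists, in the knockout (left) and in wild type (right); red and blue points passed an adjusted p of 0.05, and black lines are list medians. List medians lie between -0.15 and 0.38 in the knockout, with that of the NADPH oxidase list the highest, and between -0.10 and 0.12 in wild type. The rightmost points are Arg1, Maff and Mt2.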

How the data were processed

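Poly(A) RNA of 12 microglial preparations was sequenced. The authors deposited expected counts per gene (RSEM) and TPM computed within each library; per the submitters' processing notes, cutadapt, RSEM and the mm10 build were used. Software versions, aligner, filters and counting strand: not given in the sources used here. In the deposited expected counts, 3.69% to 4.66% of values per library were not whole, and 27 names turned into dates were restored. The 9 genes, the gene and marker lists, the alternatives and the rule for named genes were chosen with earlier results of these data known. That rule takes the 9 genes, Cpeb1, up to 4 genes per list with the smallest p past the threshold and the 2 nearest profiles of each gene that passed with LPS; others are said to be named after their values were seen.

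Expected counts were rounded and tested with edgeR 4.0.16 (R 4.3.3): filterByExpr by group (15295 genes), TMM scaling, and 1 quasi-likelihood model with a mean per group over 12 libraries (8 residual degrees of freedom), two-sided, with Benjamini-Hochberg adjustment over all genes at 0.05. SE is the absolute log2 fold change over the square root of F. Alternatives used RLE factors, DESeq2 1.42.0, no filter, a filter of 5 CPM in 3 libraries, limma 3.58.1 on log2(TPM + 1) or log2(TPM + 0.1), the groups compared only, each library left out, and the replicate number as a block. Counts were also simulated for WT-LPS against WT (15106 genes), with 200 genes changed. Of these, 0% of 1.5-fold, 14% of 2-fold, 78% of 4-fold and 96% of 8-fold changes were recovered, with 6 false calls. In the data 4185 of 15295 genes were called in that comparison. The adjustment therefore acts differently there, and the simulated rates do not give the recovery in the data.

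In WT-LPS against WT, same-numbered libraries deviated together in every pair (r = 0.149 to 0.378), which met a rule on r for pairing. No label says what a number stands for, so whether the animals were paired is not known. The main model has no pairing term, and all main values are unpaired. The replicate number entered only as the block of an alternative fit, in which 6 of the 9 genes passed in this comparison. Marker sums are TPM sums. No 2 libraries of a group agreed within counting noise. Depths of 5.02 to 13.5 M counts limit Nos2 most; counting intervals cover counting error only.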

Additional observations from a re-analysis of the deposited data

How the results depend on the processing

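In WT-LPS against WT 6 of the 9 genes passed in every alternative run except the stricter filter, which gave 5 and did not test Nos2, and 6 passed whichever library was left out; the wider set gave 28 to 44. With the replicate block the counts were 6 of the 9 genes and 35 of the wider set. In CPEB1-KO-LPS against CPEB1-KO, 5 to 8 of the 9 genes passed in the other alternatives (RLE 6, DESeq2 8, stricter filter 5, replicate block 5, groups compared only 5) and 2 to 7 with 1 library left out. The replicate block, for numbers that did not pair there (r = -0.138 to 0.0875), removed Ncf4 (adjusted p = 0.0840) and Hmox1 (adjusted p = 0.0641), left 11 of the wider set, and changed no other call on the 9 genes; in the other comparisons it gave 0 of 9. The wider set gave 20 calls with DESeq2 and 7 to 16 with 1 library left out in CPEB1-KO-LPS against CPEB1-KO, 4 with DESeq2 and 0 to 9 in CPEB1-KO against WT, and 2 with DESeq2 and 0 to 3 in the difference of responses. Calls over all genes were not tallied for the fits with 1 library left out, so their counts have no share beside them. The cause was not tested.

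No called value changed sign. Values that did not pass and turned sign with 1 library left out ranged, in WT-LPS against WT, from -0.31 to 0.72 for Cyba, -0.10 to 0.64 for Ncf1 and -0.15 to 0.53 for Ncf4. In CPEB1-KO against WT they ranged from -0.071 to 3.01 for Nos2, which rests on 4 counts, -0.0091 to 0.42 for Sod2 and -0.10 to 0.44 for Slc7a11. In CPEB1-KO-LPS against WT-LPS the ranges were -1.06 to 0.11 for Cybb, -0.81 to 0.31 for Cyba, -0.59 to 0.21 for Ncf1 and -0.38 to 0.30 for Ncf4, and in the difference of responses -0.94 to 0.23 for Hmox1 and -0.20 to 0.44 for Gch1. On the TPM scale, where the median of all genes was 0.27 in CPEB1-KO against WT, Hmox1 was 0.051 and Gch1 0.013 or 0.020 there, and Gch1 was -0.22 or -0.24 in the difference of responses, where that median was -0.31. The fit of the groups compared only was not possible for the difference of responses.

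With 3 animals per group and depths of 5.02 to 13.5 M counts, a genotype difference that did not pass is not one shown to be absent.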

Other observations

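Nos1, the neuronal nitric oxide synthase, and Nfe2l2, which encodes NRF2, were picked out after their values were seen. Nos1 had a log2 fold change with LPS of -0.94 ± 0.41 in the knockout (adjusted p = 0.218) and rose by 1.57 ± 0.45 in wild type (adjusted p = 0.0201). Its mean level was 1.77 TPM in CPEB1-KO-LPS (170 counts), 3.48 TPM in CPEB1-KO (317 counts) and 3.71 TPM in WT-LPS (316 counts). In WT it was 0.94 TPM, on 59 counts with 6 in the lowest library, so the wild-type value rests on few counts. The difference of these responses was -2.51 ± 0.61, which did not pass in edgeR's quasi-likelihood test with Benjamini-Hochberg adjustment (adjusted p = 0.195) and passed in DESeq2 (adjusted p = 0.0112). Neuron markers summed to 2185 to 4133 TPM in CPEB1-KO-LPS, 3393 to 4768 TPM in CPEB1-KO, 1848 to 5422 TPM in WT-LPS and 1153 to 3329 TPM in WT, and their part in the result was not tested.

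Nfe2l2 had a log2 fold change with LPS of 0.01 ± 0.28 in the knockout (adjusted p = 0.978), with 21.8 ± 5.18 TPM in CPEB1-KO-LPS and 22.8 ± 3.63 TPM in CPEB1-KO (SD, n = 3). It fell by 1.18 ± 0.28 in wild type (adjusted p = 0.00899), with 18.2 ± 2.64 TPM in WT-LPS and 31.4 ± 4.16 TPM in WT. The difference of responses was 1.19 ± 0.40 (adjusted p = 0.221) and did not pass. Of other genes that NRF2 is known to induce, also named after their values were seen, Txnrd1, Gsr and Gclc did not pass in the knockout (0.60 ± 0.25, 1.22 ± 0.34 and 0.39 ± 0.15) and rose in wild type (1.29 ± 0.25, 1.69 ± 0.35 and 0.45 ± 0.15). Nqo1, Gclm and Srxn1 did not pass in either genotype: in the knockout their values were -0.25 ± 0.30, -0.16 ± 0.23 and -0.06 ± 0.28, and in wild type -0.59 ± 0.31, -0.01 ± 0.23 and 0.13 ± 0.28.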
